A study of Mus musculus with 12 samples.

Results

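The axon regeneration-associated genes described here are 10 genes, found by their symbols among the 39756 genes of a mouse brain count table. They comprise the growth cone proteins Gap43 and Stmn2, the transcription factors Sox11, Klf6 and Klf4, and the injury-induced effectors Sprr1a, Gal, Ecel1, Flrt3 and Gadd45a. The samples came from 12 male C57BL/6J mice, aged 9 to 10 weeks by the study's methods, divided into Sham, Vehicle and LJP groups of 4. RNA was taken from the ischemic hemisphere, which holds tissue both inside and outside the territory of the occluded artery. Ischemia was induced in the Vehicle and LJP mice by transient middle cerebral artery occlusion (tMCAO), a stroke model in which the artery is closed from inside with a filament, here for 45 min, and then reopened. Sham mice had surgery without the occlusion. LJP is a polysaccharide of the brown seaweed Laminaria japonica, given by mouth for 14 days before surgery and then continued, while Sham and Vehicle mice received saline. The study took the middle of its 3 LJP doses (LJP-M) into the experiments that followed its dose comparison. Its text does not state the dose beside the sequencing, nor the time after occlusion at which the sequenced tissue was taken. The comparisons address how cerebral ischemia changed these genes, and how their levels differed when LJP was given.

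A cut peripheral axon switches its neuron to a growth program, in which transcription factors such as Atf3, Jun, Sox11 and Klf6 precede growth cone proteins, neuropeptides and surface proteins. Most neurons of the adult brain mount this program weakly, and Klf4 is known as a factor that restrains their axon growth. Several of the same genes also serve other cells: Klf4 and Klf6 act in endothelium, Gadd45a answers DNA damage and stress in many cell types, and Sprr1a is a cornified envelope protein of skin.

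The promoters shown are those of Klf6, Klf4 and Gadd45a, which were highest in the same Vehicle mice, of Flrt3, which fell, and of Sprr1a, which had reads almost only after tMCAO. RefSeq promoters of GRCm38.p6 were matched for 8 of the 10 genes, and the 250 bases before each start were searched on both strands for TGANTCA (the AP-1 site), TGACGTCA (the cyclic AMP response element), TTCNNNGAA (the STAT site), TATAAA (the TATA box) and GGGCGG (the GC box). Capitals mark matched letters, and each sequence runs 5′ to 3′ on the strand of its gene.
Sprr1a (chr3:92485882-92486131, minus strand): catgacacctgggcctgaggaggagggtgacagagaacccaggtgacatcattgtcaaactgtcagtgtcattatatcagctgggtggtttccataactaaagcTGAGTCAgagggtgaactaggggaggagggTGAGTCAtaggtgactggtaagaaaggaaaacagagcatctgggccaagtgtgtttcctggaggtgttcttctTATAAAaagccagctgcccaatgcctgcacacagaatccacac
Klf6 (chr13:5861239-5861488, plus strand): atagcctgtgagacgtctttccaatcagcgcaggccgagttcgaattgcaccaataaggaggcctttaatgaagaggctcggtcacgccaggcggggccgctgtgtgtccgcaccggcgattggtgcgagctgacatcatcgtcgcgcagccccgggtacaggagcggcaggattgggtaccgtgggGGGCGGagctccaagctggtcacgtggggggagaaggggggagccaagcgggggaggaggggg
Klf4 (chr4:55532476-55532725, minus strand): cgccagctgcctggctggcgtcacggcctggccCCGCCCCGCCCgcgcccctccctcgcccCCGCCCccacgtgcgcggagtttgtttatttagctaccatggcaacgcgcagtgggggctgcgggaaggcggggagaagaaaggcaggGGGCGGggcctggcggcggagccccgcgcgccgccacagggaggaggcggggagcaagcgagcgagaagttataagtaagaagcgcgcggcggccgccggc
Gadd45a (chr6:67037408-67037657, minus strand): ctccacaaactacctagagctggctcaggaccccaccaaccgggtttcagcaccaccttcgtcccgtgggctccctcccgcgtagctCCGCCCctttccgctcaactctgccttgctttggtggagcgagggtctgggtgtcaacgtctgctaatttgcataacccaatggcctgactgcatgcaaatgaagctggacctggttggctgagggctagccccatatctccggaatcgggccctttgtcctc
Flrt3 (chr2:140671477-140671726, minus strand): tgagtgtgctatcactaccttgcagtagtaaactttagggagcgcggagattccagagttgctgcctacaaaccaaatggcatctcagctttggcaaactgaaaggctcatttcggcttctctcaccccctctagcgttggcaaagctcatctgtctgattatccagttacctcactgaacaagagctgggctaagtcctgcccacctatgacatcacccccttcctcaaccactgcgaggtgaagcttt
The Sprr1a promoter held the AP-1 letters at bases -146 to -140 and again at -116 to -110, counted back from the start, and a TATA box at -43 to -38. Among 32851 promoters of the same length, 6.75% held at least 1 AP-1 match, 0.338% held at least 2, and 12.4% held the TATA letters. The promoters of Klf6, Klf4 and Gadd45a held GC boxes, at 1, 4 and 1 positions respectively, which 32.7% of all promoters also held. Of the 4 in Klf4, those starting at -217 and -212 overlap by a base. No cyclic AMP or STAT letters, held by 1.55% and 7.02% of promoters, occurred in these 5 windows, and the Flrt3 window held none of the letters searched. Sox11 and Gal also held GC boxes only, and Ecel1 held no match. The Ecel1 window (chr1:87156357-87156606, minus strand) lies inside the gene model of the count table, so it does not describe the bases before that model's start. A match describes the letters and not a bound site.

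Total counts per mouse lay between 17960353 and 22216315, and 17558 genes had enough counts to be tested, among them all of the 10 genes but Sprr1a. Levels are given as CPM, counts divided by the TMM-normalized library size and put on the usual CPM scale, and a count of 0 allows up to 3 counts, or 0.129 to 0.173 CPM, for counting error only. Vehicle mice 1 and 2 stood apart on the first principal component, which held 60.3% of the variance, at 69.6 and 113 against 13.7 and 27.5 for Vehicle mice 3 and 4, -15.2 to 20.7 for LJP mice and -56.7 to -51.7 for Sham mice. The summed level of 4 endothelial markers was 158 to 172 CPM in Sham mice, 598, 1239, 235 and 295 in Vehicle mice 1 to 4, and 154 to 214 in LJP mice. Neuron markers, 7 genes, summed to 6051 to 6777 CPM in Sham, 5044, 3918, 6028 and 5824 in Vehicle, and 5765 to 6866 in LJP mice. Microglial markers summed to 179 to 185 CPM in Sham, 247 to 462 in Vehicle and 279 to 458 in LJP mice, astrocyte markers to 711 to 754, 757 to 907 and 789 to 909, and oligodendrocyte markers to 3436 to 4194, 4136 to 4458 and 3292 to 4064. The comparisons of Vehicle with Sham mice are therefore also given without Vehicle mice 1 and 2 for the called genes among the 10 and for the leading genes of each list. Those fits keep only Vehicle mice 3 and 4, a choice made after seeing the data. A smaller p-value in them than over all mice is therefore no stronger support.

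In Sham hemispheres, and per kilobase of gene model, Gap43 was the most abundant of the 10 at 141 ± 6.33 CPM per kb (SD, n = 4). Stmn2 followed at 106 ± 3.06 and Klf6 at 8.73 ± 0.367. Then came Flrt3 at 7.16, Gadd45a at 6.27, Ecel1 at 5.08, Sox11 at 4.38 and Klf4 at 3.41 CPM per kb, a stretch in which each gene's range overlapped that of the next. Gal at 0.674 and Sprr1a at 0.0172 CPM per kb were the lowest, and their ranges overlapped as well. The growth cone genes were thus high in uninjured hemispheres, where Gal held 0 to 20 counts and Sprr1a lay under the floor of detection.

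**Figure D1:**
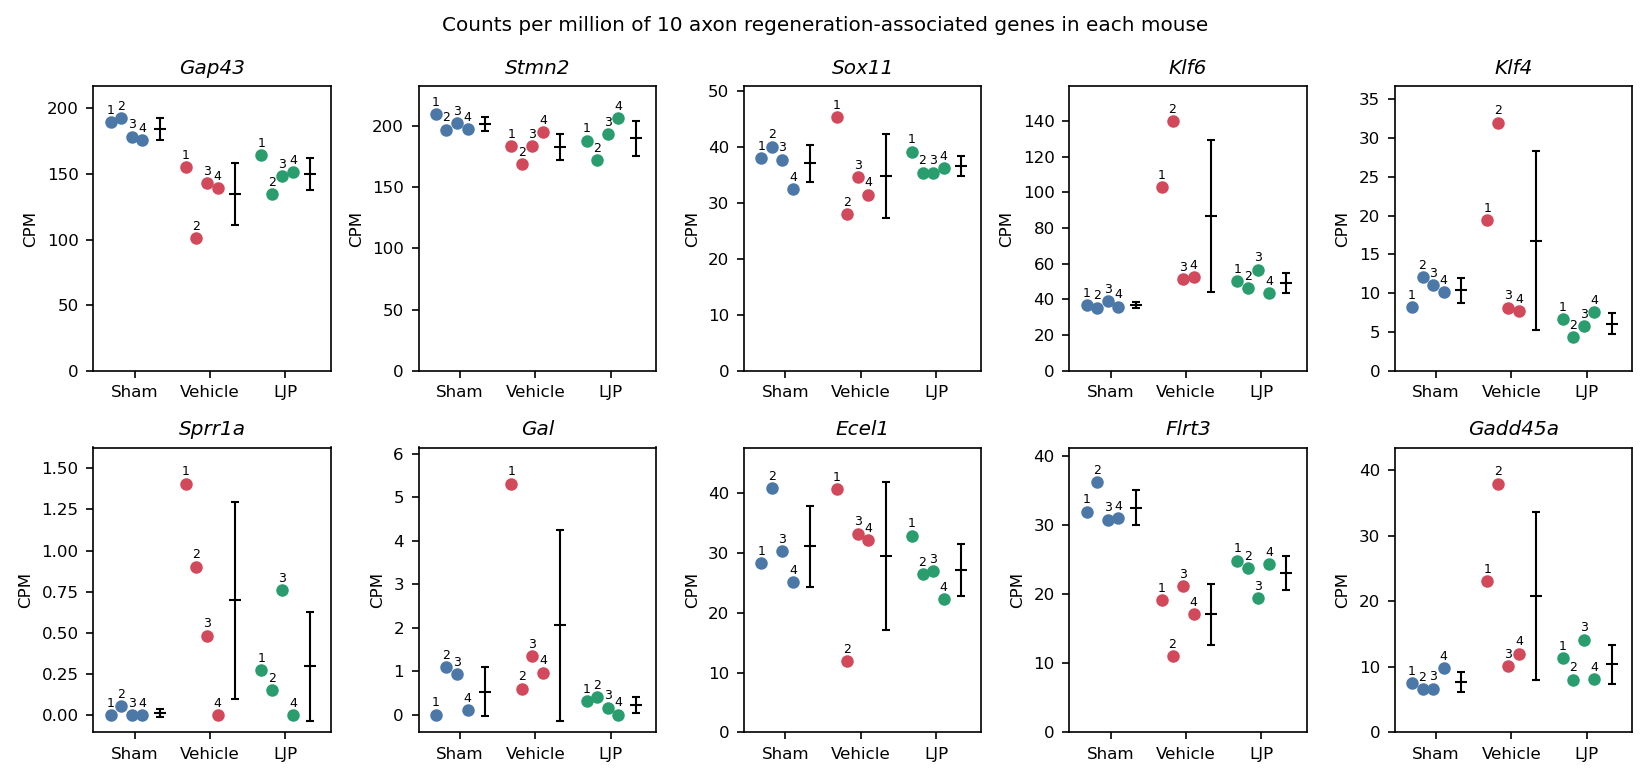
Normalized counts (CPM, y axis, from 0) of each gene in every mouse, with mouse numbers beside the points and the group mean and SD (n = 4) as a black bar. Klf6, Klf4 and Gadd45a were highest in Vehicle mice 1 and 2, whereas Flrt3 and Gap43 were below the Sham range in all 4 Vehicle mice.

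After tMCAO, the genes did not move as 1 group. Klf6 and Gadd45a rose, Gap43 and Flrt3 fell, and the other 5 tested genes did not pass the test, at an edgeR adjusted p below 0.05. These 4 of 9 stand beside a background of 39.9% of all tested genes called in either direction, 22.7% higher and 17.3% lower. That background held 3982 higher and 3032 lower genes, which became 4737 and 2299 when libraries were scaled by size alone, while the counts of the 9 genes stayed at 2 and 2. The groups did not overlap in 5 of the 9, against 39.5% of all tested genes. The median log2 fold change of the 9 was -0.08, against 3.54e-05 over all genes tested. The share called was thus near that of all genes. Without Vehicle mice 1 and 2, 3 of the 9 were called (Klf6 higher, Gap43 and Flrt3 lower), and of all genes 29.7% were called, 15.7% higher and 14% lower (2836 and 2534 genes).

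Gap43 (Entrez Gene 14432, GRCm38 chr16:42248552-42340651, minus strand) encodes a membrane-bound protein of the growth cone and presynaptic terminal. It stood at 189.7, 193, 178 and 176 CPM in Sham mice 1 to 4, at 155, 101, 143 and 139 in Vehicle mice and at 164, 135, 148 and 151 in LJP mice. Every Vehicle mouse lay below every Sham mouse, and Vehicle mouse 2 was the lowest. Gap43 fell by 0.45 on the log2 scale (standard error 0.115, edgeR adjusted p = 0.00874), and by 0.39 without Vehicle mice 1 and 2 (edgeR adjusted p = 0.00112). Of the neuron markers 3 of 7 also fell, with a list median of -0.43, and their part in the fall of Gap43 was not tested. In bulk tissue, fewer cells of a type and less RNA per cell cannot be told apart.

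Stmn2 (Entrez Gene 20257, chr3:8509527-8561604, plus strand), a neuronal regulator of microtubule turnover, changed little. Its level was 209, 197, 202 and 197 CPM in Sham, 183, 168, 183 and 195 in Vehicle and 188, 172, 193 and 206 in LJP mice. At these TMM-scaled levels, all Vehicle mice lay below all Sham mice (exact permutation p = 0.0286, two-sided, the smallest that 4 against 4 mice allow). The difference was -0.14 on the log2 scale with a 95% interval of -0.30 to 0.014 and did not pass the test across all genes (edgeR adjusted p = 0.132). When libraries were scaled by size alone it shrank to -0.066 (edgeR adjusted p = 0.456), so the size of this small difference depends on the scaling.

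Klf6 (Entrez Gene 23849, chr13:5861489-5870393, plus strand) is a zinc finger transcription factor that promotes axon growth and also answers vascular injury. Its level was 36.9, 35.4, 38.96 and 36.0 CPM in Sham, 103, 139.8, 51.5 and 52.5 in Vehicle and 50.2, 46.5, 56.7 and 43.6 in LJP mice. All Vehicle mice exceeded all Sham mice, and Vehicle mice 1 and 2 stood far above mice 3 and 4. The mean rose from 36.8 ± 1.55 to 86.7 ± 42.8 CPM (SD, n = 4 each), or by 1.24 on the log2 scale (standard error 0.266, edgeR adjusted p = 0.00375). Without Vehicle mice 1 and 2 it was 0.49 (edgeR adjusted p = 0.000964).

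Klf4 (Entrez Gene 16600, chr4:55527137-55532475, minus strand), the family member known to restrain axon growth and to act in endothelium, split the Vehicle group. Its level was 8.25, 12.0, 11.01 and 10.2 CPM in Sham, 19.4, 31.97, 8.13 and 7.65 in Vehicle and 6.68, 4.35, 5.77 and 7.52 in LJP mice. Vehicle mice 1 and 2 exceeded every Sham mouse, while mice 3 and 4 lay below every Sham mouse. Mouse 3 did so only just, at 8.13 against 8.25 CPM in Sham mouse 1, where its raw counts were 151 against 143. The log2 difference was 0.70, with a 95% interval of -0.13 to 1.53 (edgeR adjusted p = 0.159), and it turned to -0.40 without Vehicle mice 1 and 2 (edgeR adjusted p = 0.147). The endothelial marker sum was likewise highest in these mice, at 598 and 1239 CPM, as was the blood leukocyte sum, at 144 and 56.7 CPM against 11.4 and 19.6 in Vehicle mice 3 and 4. The leukocyte sum was 2.90 to 4.04 CPM in Sham and 5.73 to 16.8 in LJP mice. The fibroblast sum was 51.5 to 56.4 CPM in Sham, 100.3, 888, 106 and 171 in Vehicle mice 1 to 4, and 49.8 to 86.7 in LJP mice. The part of these cells in the levels of Klf6, Klf4 and Gadd45a was not tested.

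Sox11 (Entrez Gene 20666, chr12:27334268-27342718, minus strand), a transcription factor of immature neurons that can drive axon growth, showed no detectable change. It stood at 37.9, 40.0, 37.7 and 32.4 CPM in Sham, 45.3, 28.0, 34.6 and 31.5 in Vehicle and 39.1, 35.4, 35.4 and 36.2 in LJP mice. The Vehicle mice spanned the whole Sham range, with mouse 1 above it and mice 2 and 4 below it. The log2 difference was -0.09, with a 95% interval of -0.37 to 0.19 (edgeR adjusted p = 0.616), and it lay between -0.24 (without Vehicle mouse 1) and -0.00063 (without Vehicle mouse 2) when 1 mouse was left out. Neuroblast markers, 4 genes, summed to 117 to 130.3 CPM in Sham, 92.7 to 139 in Vehicle and 132 to 142 in LJP mice, and none of them was called.

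Gadd45a (Entrez Gene 13197, chr6:67035096-67037407, minus strand), a growth arrest and DNA damage-inducible stress gene, was also highest in Vehicle mice 1 and 2. Its level was 7.55, 6.59, 6.69 and 9.85 CPM in Sham, 23.1, 37.9, 10.1 and 12.0 in Vehicle and 11.4, 8.03, 14.1 and 8.08 in LJP mice. All Vehicle mice exceeded all Sham mice, with mouse 3 only just above the highest Sham mouse. Gadd45a rose by 1.44 on the log2 scale (standard error 0.366, edgeR adjusted p = 0.00873). Without Vehicle mice 1 and 2 the difference was 0.52 and did not pass the test (edgeR adjusted p = 0.0971). E230016M11Rik overlaps Gadd45a on the opposite strand and held 18 to 26 counts in Sham and 43 to 112 in Vehicle mice. The strand setting of the counting is not given in the sources used here, so reads of such a pair cannot be told apart.

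Flrt3 (Entrez Gene 71436, chr2:140658198-140671476, minus strand) encodes a leucine-rich repeat surface protein that binds Unc5 receptors and guides axons. Its level was 31.9, 36.2, 30.8 and 31.0 CPM in Sham, 19.1, 11, 21.2 and 17.1 in Vehicle and 24.8, 23.8, 19.5 and 24.4 in LJP mice. Every Vehicle mouse lay below every Sham mouse, and mouse 2 was again the lowest. Flrt3 fell by 0.93 on the log2 scale (standard error 0.166, edgeR adjusted p = 0.00148), the smallest p-value among the 9 genes. Without Vehicle mice 1 and 2 the fall was by 0.77 (edgeR adjusted p = 0.000229). Macrod2, which overlaps Flrt3 on the opposite strand, fell by 0.70 (edgeR adjusted p = 0.00197), and reads of this pair cannot be told apart either.

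Ecel1 (Entrez Gene 13599, chr1:87142874-87157085, minus strand), a membrane metalloprotease induced in injured neurons, varied more among mice than between groups. Its level was 28.3, 40.8, 30.3 and 25.1 CPM in Sham, 40.7, 11.9, 33.2 and 32.1 in Vehicle and 32.8, 26.5, 26.9 and 22.3 in LJP mice. The groups overlapped, and the log2 difference between Vehicle and Sham was -0.08, with a 95% interval of -0.70 to 0.54 (edgeR adjusted p = 0.839). Its direction turned without Vehicle mouse 2 (0.18) and without Sham mouse 2 (0.07).

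Gal (Entrez Gene 14419, chr19:3409915-3414544, minus strand) encodes galanin, a neuropeptide of the hypothalamus that is induced by nerve injury. Its counts were 0, 20, 17 and 2 in Sham, 117, 14, 25 and 18 in Vehicle and 7, 8, 3 and 0 in LJP mice. Vehicle mouse 1 held most of the group's Gal reads, and the Vehicle and Sham groups overlapped. The log2 difference was 1.94 (95% interval -0.0058 to 3.90, edgeR adjusted p = 0.101), and 0.85 without Vehicle mouse 1. The hypothalamic peptide Oxt held 0, 22, 6 and 8 counts in Sham, 136, 1, 53 and 31 in Vehicle and 3, 2, 4 and 2 in LJP mice. Avp, another hypothalamic peptide, held 1, 24, 12 and 4 counts in Sham, 90, 8, 135 and 11 in Vehicle and 1, 5, 6 and 1 in LJP mice. The 6 hypothalamic markers summed to 2.94 to 5.12 CPM in Sham, 2.58 to 12.9 in Vehicle and 2.04 to 3.51 in LJP mice, and their part in the Gal values was not tested.

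**Figure D2:**
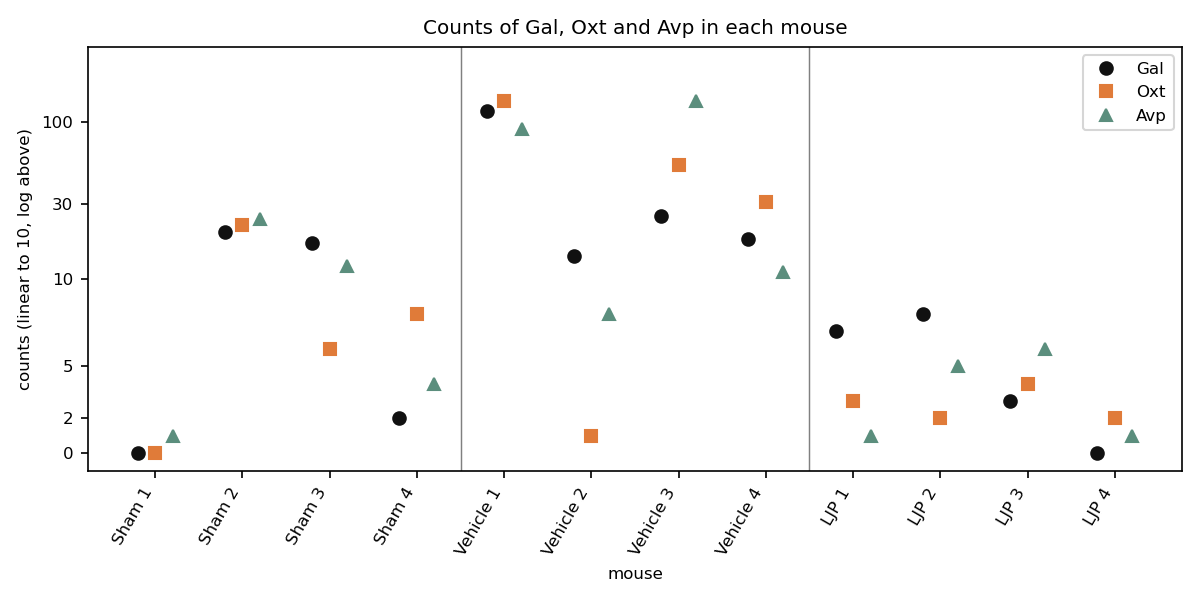
Counts of Gal, Oxt and Avp (y axis, linear to 10 and logarithmic above) in each of the 12 mice. Vehicle mouse 1 had 117 counts of Gal beside 136 of Oxt and 90 of Avp, and the LJP mice had at most 8 of Gal, 4 of Oxt and 6 of Avp.

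Sprr1a (Entrez Gene 20753, chr3:92483954-92485881, minus strand), a cornified envelope protein that injured sensory neurons also make, was nearly absent without ischemia. Its counts were 0, 1, 0 and 0 in Sham, 31, 21, 9 and 0 in Vehicle and 6, 3, 14 and 0 in LJP mice. Reads were thus found in 3 of 4 mice in both tMCAO groups, while mouse 4 of each had 0 counts. The ratio of Vehicle to Sham was 54.2, with a 95% interval of 9.37 to 2175 that covers counting error only, and the mice did not separate (exact permutation p = 0.143, two-sided). Sprr1a was removed by the filter on low counts. With no filter the difference was called (edgeR adjusted p = 0.0105, DESeq2 adjusted p = 0.00227). Sprr1a also passed the filter and was called in 9 of the 12 fits that left out 1 mouse (edgeR adjusted p = 0.00295 to 0.0401). It was not tested without Vehicle mouse 1, Vehicle mouse 2 or LJP mouse 3. Those mice held its most counts (31, 21 and 14), so the 9 calls hang on keeping them and are no further support. Of 6 keratinocyte markers, Krt5, Krt14 and Ivl held at most 5 counts in any mouse, the 5 being Krt14 in Vehicle mouse 1, which also held the most Sprr1a. The other markers were present in every Sham mouse, and between Vehicle and Sham mice Lor was called higher (0.33, edgeR adjusted p = 0.0498), Krt10 lower (-1.12, 0.000222) and Krt1 not (0.55, 0.115). The summed level of the 6 keratinocyte markers was 46.5 to 54.8 CPM in Sham and 40.2 to 59.7 in Vehicle mice, and their part in the Sprr1a counts was not tested.

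**Figure D3:**
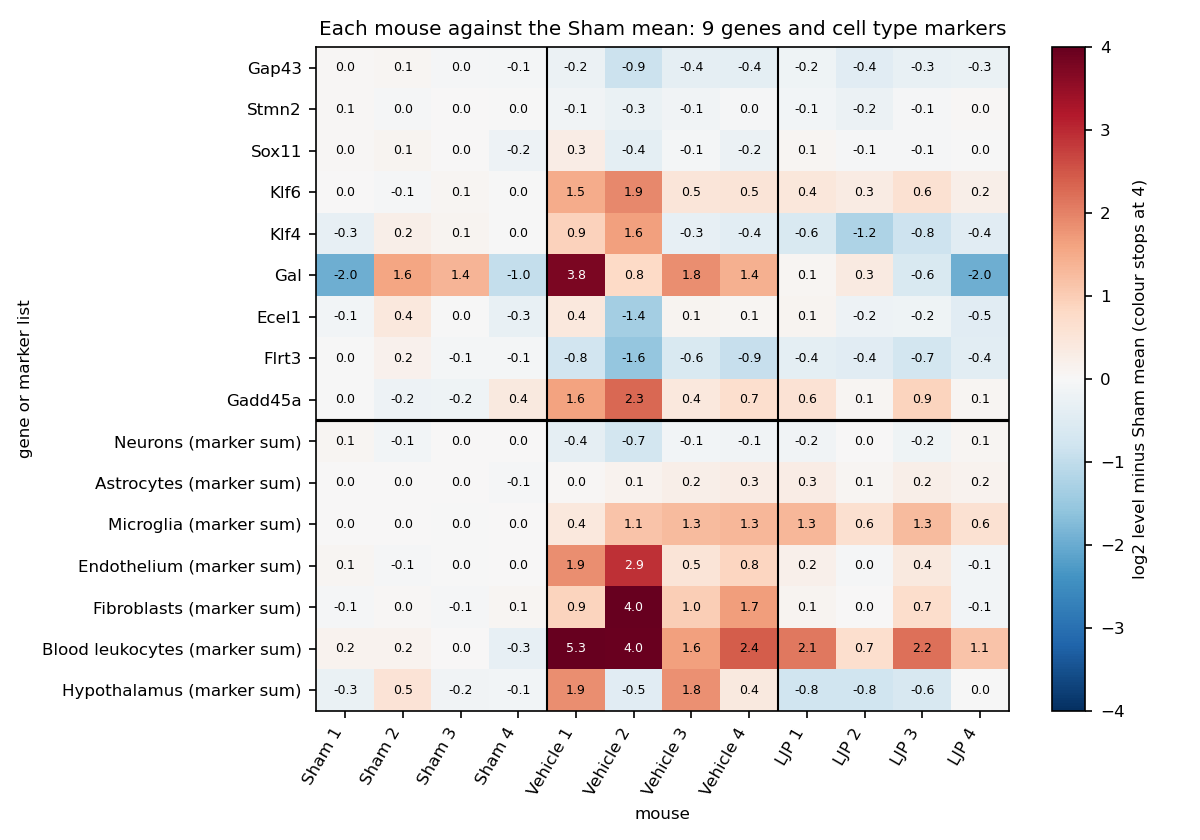
Log2 level of 9 genes and of 7 summed marker lists in each mouse, minus the Sham mean (colour and printed value, colour scale stopping at 4). Vehicle mouse 2 had the highest Klf6, Klf4 and Gadd45a and the lowest Gap43, Ecel1 and Flrt3 of all mice, together with the highest endothelial and fibroblast marker sums and the lowest neuron sum.

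Within the Vehicle group, mouse 2 was the highest for 3 of the 10 genes and the lowest for 6, whereas mouse 1 was the highest for 5 and the lowest for 0. The coefficient of variation was larger in Vehicle than in Sham mice for 9 of the 10 genes, all but Sprr1a, and larger than in LJP mice for 8 of 10. Klf6 had an SD of 42.8 CPM in Vehicle mice against 1.55 in Sham and 5.67 in LJP mice, and Gadd45a 12.8 against 1.51 and 2.94.

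LJP-treated mice had lower Klf4, Gal, Klf6 and Gadd45a values than Vehicle mice on average, but none of the 9 tested genes passed the edgeR test between these groups. At an unadjusted edgeR p below 0.05 there were 5, these 4 and Flrt3. Across all genes the same test called 0.0228%, which is 4 of 17558, and 5212 genes (29.7%) had an unadjusted p below 0.05. Klf4 and Gal did not overlap between the groups, 2 of 9 against 11.7% of all tested genes. The median log2 fold change of the 9 was -0.12, against -0.0017 over all genes.

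Klf4 averaged 16.8 ± 11.5 CPM in Vehicle and 6.08 ± 1.36 in LJP mice (SD, n = 4 each). All 4 LJP mice lay below all Vehicle mice (exact permutation p = 0.0286, two-sided), and the log2 difference was -1.47 (standard error 0.393, edgeR adjusted p = 0.068). Gal averaged 2.06 ± 2.19 CPM in Vehicle and 0.223 ± 0.180 in LJP mice, with a log2 difference of -3.14 (standard error 0.995, edgeR adjusted p = 0.0795). Its level too was lower in all LJP mice (exact permutation p = 0.0286, two-sided), and so were the counts of Avp, while those of Oxt were lower than in Vehicle mice 1, 3 and 4 only. Without Vehicle mice 1 and 2 the Klf4 difference was -0.38 (edgeR adjusted p = 0.426), and the Gal difference was -2.31 (edgeR adjusted p = 0.295). Leaving out Vehicle mouse 1 alone moved the Gal difference to -2.05.

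Klf6 averaged 49.2 ± 5.67 CPM in LJP mice, and its difference from Vehicle of -0.82 (standard error 0.262, edgeR adjusted p = 0.0826) lay mainly in Vehicle mice 1 and 2. LJP mouse 3, at 56.7 CPM, exceeded Vehicle mice 3 and 4. Without Vehicle mice 1 and 2 the Klf6 difference was -0.08 (edgeR adjusted p = 0.745). Gadd45a differed by -1.003 (standard error 0.36, edgeR adjusted p = 0.102), and by -0.09 without those mice (edgeR adjusted p = 0.895). For both genes, LJP mice thus lay close to Vehicle mice 3 and 4.

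Flrt3 was the only 1 of the 5 that was higher in LJP mice, at 23.1 ± 2.47 against 17.1 ± 4.38 CPM (SD, n = 4 each). The log2 difference was 0.44 (standard error 0.166, edgeR adjusted p = 0.114), and LJP mouse 3 lay within the Vehicle range. It was 0.27 without Vehicle mouse 2 (edgeR adjusted p = 0.177) and likewise 0.27 without Vehicle mice 1 and 2 (0.339). Gap43 differed by 0.15, with a 95% interval of -0.10 to 0.40, Stmn2 by 0.06 (-0.10 to 0.21), Sox11 by 0.07 (-0.21 to 0.35) and Ecel1 by -0.12 (-0.74 to 0.51). The Gap43 difference was 0.036 without Vehicle mouse 2, and that of Stmn2 was 0.016 without LJP mouse 4. Sprr1a held 23 counts in LJP and 61 in Vehicle mice, a ratio of 0.399 with a counting interval of 0.236 to 0.654, and the mice overlapped (exact permutation p = 0.371, two-sided).

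The calls between LJP and Vehicle mice depended on the tool, on the filter and on single Vehicle mice. With no filter on low counts, edgeR called Klf4 only among the 10 genes (adjusted p = 0.0458), and 1.96% of all genes, 50 higher and 543 lower. DESeq2 called 4 of the genes lower, against a background of 13.2% of genes. These were Klf4 (log2 difference -1.47, DESeq2 adjusted p = 0.00531, range over the alternatives 0.00531 to 0.426), Gal (-3.20, 0.0211, range 0.0211 to 0.295), Klf6 (-0.81, 0.0271, range 0.0176 to 0.745) and Gadd45a (-0.999, 0.0425, range 0.0249 to 0.895). Without Vehicle mouse 3, edgeR called the same 4 lower and Flrt3 higher, while 21.6% of all genes were called. Without Vehicle mouse 4 it called Klf6, Klf4 and Gadd45a, all lower, while 11.7% of all genes were called, 599 higher and 1496 lower. Without Vehicle mouse 1 or mouse 2 it called 0 of the 10 genes, and 3 and 5 of all genes.

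**Figure D4:**
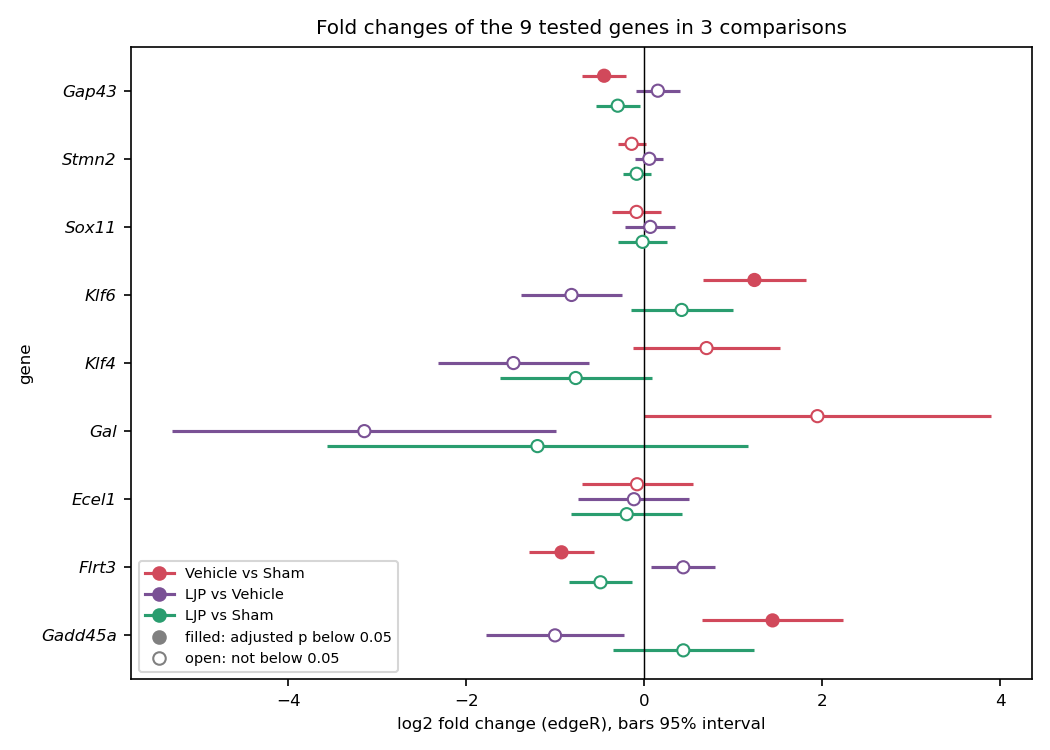
Log2 fold change of the 9 tested genes (x axis) in 3 comparisons, with 95% intervals from edgeR and filled points where the adjusted p was below 0.05. The filled points are Gap43, Klf6, Flrt3 and Gadd45a in Vehicle against Sham, and Gal has the widest intervals.

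Compared with Sham mice, LJP mice had a lower Gap43, Flrt3 and Klf4 and a higher Klf6, with all 4 mice of 1 group on the same side of all 4 of the other (exact permutation p = 0.0286 for each, two-sided). These 4 of 9 without overlap stand beside 24.9% of all tested genes. None passed the edgeR test over the 12 mice, DESeq2 called 0 as well, and edgeR called 4.75% of all genes. An unadjusted p below 0.05 was held by 2 of the 9 and by 3309 of all 17558 genes (18.8%). The log2 differences were -0.30 for Gap43 (edgeR adjusted p = 0.175), -0.49 for Flrt3 (0.12), -0.77 for Klf4 (0.319) and 0.42 for Klf6 (0.433). The fit of 12 mice shares its estimate of the spread with the wide Vehicle group.

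In a fit of the Sham and LJP mice alone, edgeR called these 4 genes, while 23.8% of all genes were called. Their adjusted p-values from edgeR were then 0.00331 for Gap43, 0.00116 for Flrt3, 0.00473 for Klf4 and 0.00221 for Klf6, with log2 differences of -0.30, -0.50, -0.78 and 0.42. Over all alternatives they ranged from 0.00174 to 0.368, 0.00116 to 0.329, 0.00281 to 0.523 and 0.00123 to 0.682. Klf4 was thus lower than in any Sham mouse in all LJP mice and in Vehicle mice 3 (only just) and 4, and higher in Vehicle mice 1 and 2. Gadd45a differed by 0.44 (edgeR adjusted p = 0.572), Gal by -1.20 (0.61), Ecel1 by -0.20 (0.771), Stmn2 by -0.09 (0.576) and Sox11 by -0.02 (0.957), and all of these overlapped between LJP and Sham mice. When 1 mouse was left out they ranged from 0.26 (without LJP mouse 3) to 0.58 for Gadd45a, from -1.63 to -0.59 (without Sham mouse 2) for Gal, from -0.30 to -0.041 (without Sham mouse 2) for Ecel1 and from -0.13 to -0.041 (without LJP mouse 2) for Stmn2, and none was called. These comparisons share the Sham or the Vehicle mice, so their values are not independent of each other.

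Other genes of the regeneration program were read from 5 lists, and genes outside the 3 smallest p-values of a list and the relatives of the 10 genes were named after their values were seen. Of 12 regeneration transcription factors, 8 rose and 2 fell between Vehicle and Sham mice, with a median log2 fold change of 0.93. Cebpd rose by 4.15 (edgeR adjusted p = 0.000181), Atf3 by 3.91 (0.000206) and Stat3 by 1.79 (0.000796), all factors of the injury response, and Sox4, a relative of Sox11, by 0.87 (0.00525). These were, without Vehicle mice 1 and 2, 2.82, 3.10, 0.99 and 0.37, all still called, and of the list 7 rose and 2 fell, where 15.7% of all genes rose and 14% fell. The list median was then 0.44. Atf3 held 6, 24, 16 and 11 counts in Sham, 370, 387, 140 and 110 in Vehicle and 105, 65, 144 and 55 in LJP mice. The 2 that fell were Egr1, an activity-dependent factor (-0.91), and Creb1 (-0.35). Markers of other cells rose in the same comparison, 3 of 4 of endothelium (median log2 fold change 2.46), both tested of blood leukocytes (2.70), 4 of 4 of fibroblasts (2.93) and 3 of 4 of microglia (1.003), and their part in the levels of this list was not tested. Atf3 and Cebpd were also higher in LJP than in Sham mice (2.601 and 2.32, edgeR adjusted p = 0.00846 and 0.0164).

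Growth cone and cytoskeleton genes, the class of Gap43 and Stmn2, moved both ways. Of 17, 4 rose and 3 fell (5 and 2 when libraries were scaled by size alone), with a median of -0.26. The tubulins Tubb6 and Tubb2b rose by 3.59 (edgeR adjusted p = 0.000451) and 1.00 (0.000521), with Dpysl3 (0.66, 0.00284) and Marcksl1 (0.35, 0.0297), while Stmn4, the relative of Stmn2, fell by 0.40 (0.0021), with Map1b and Crmp1. Stmn1 and Stmn3 differed by -0.28 and -0.29 (edgeR adjusted p = 0.337 and 0.0769). Tubb6 held 120 to 151 counts in Sham, 2410, 4076, 574 and 720 in Vehicle and 201 to 532 in LJP mice, highest in the mice with the highest endothelial sums. With Vehicle mice 1 and 2 left out, Tubb6 rose by 2.23, Tubb2b by 0.75 and Stmn4 fell by 0.31, each still called, and Marcksl1 was not called (0.12, edgeR adjusted p = 0.308). Of the list 5 rose and 3 fell without those mice, beside 15.7% and 14% of all genes, and the list median shrank to -0.022. The part of the endothelial, fibroblast and neuron markers in these levels was not tested.

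Injury-induced secreted and surface proteins split likewise. Of 18, 8 rose and 2 fell (Bdnf and L1cam), and the median was -0.11. The hyaluronan receptor Cd44 rose by 4.82 (edgeR adjusted p = 4.62e-05), the integrin Itga7 by 1.68 (0.000107) and the TWEAK receptor Tnfrsf12a by 3.05 (0.000122). Between LJP and Sham mice 5 were higher, Cd44, Lgals1, Itga7, Tnfrsf12a and Lif. The endothelial, leukocyte, fibroblast and microglial markers named above rose beside this list too, among them the leukocyte marker Ptprc by 2.67 (edgeR adjusted p = 0.000375), and their part in it was not tested. Cd44 held 25 to 38 counts in Sham, 530 to 1586 in Vehicle and 309 to 762 in LJP mice. When Vehicle mice 1 and 2 were left out, Cd44 rose by 4.14, Itga7 by 1.33 and Tnfrsf12a by 2.26. Of the list 7 then rose and 3 fell, beside the same 15.7% and 14% of all genes, and its median turned to 0.22. None of the neuropeptides of the list, the class of Gal, was called between Vehicle and Sham mice. Their log2 differences were -0.91 for Nts (edgeR adjusted p = 0.174), -0.71 for Crh (0.16), -0.40 for Adcyap1 (0.118), -0.21 for Vip (0.572) and -0.11 for Npy (0.634), and Nts was called without Vehicle mice 1 and 2 (-0.74, 0.027).

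Of 15 brakes on axon growth, 3 rose and 4 fell, with a median of -0.07. Socs3, the feedback inhibitor of Stat3 signaling, rose by 4.65 (edgeR adjusted p = 0.000259) and the cytoskeletal GTPase Rhoa by 0.75 (0.00232), together with Nrp1. The receptor Epha4 fell by 0.58 (0.00105), with Omg, Sema3a and Rtn4r. In Vehicle mice 3 and 4 alone against Sham, Socs3 rose by 3.04, Rhoa by 0.48 and Epha4 fell by 0.47, each still called, and Rtn4r was not called (-0.15, edgeR adjusted p = 0.209), while the median of the brakes turned to 0.012. The part of the same markers in the rise of Socs3, Rhoa and Nrp1 was not tested. Rtn4, which encodes the myelin inhibitor Nogo, differed by 0.04 (edgeR adjusted p = 0.623).

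**Figure D5:**
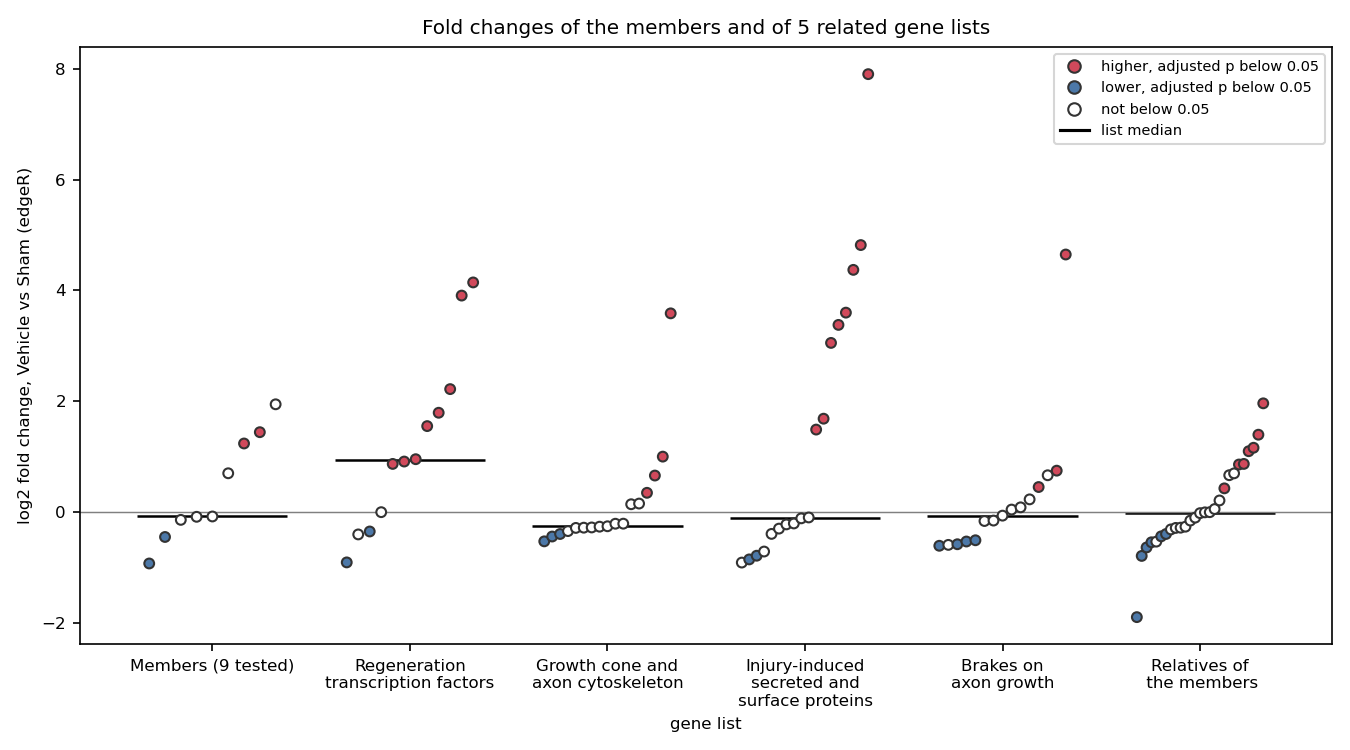
Log2 fold change between Vehicle and Sham mice (y axis) of the 9 tested genes and of every tested gene in 5 related lists, with red and blue for higher and lower at an edgeR adjusted p below 0.05 and a bar at each median. The transcription factor list has a median of 0.93, and the other medians lie between -0.26 and -0.02.

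Among 31 relatives of the 10 genes, 27 had enough counts to be tested, of which 7 rose and 6 fell, with a median of -0.02. Some of them, such as Sox4 and Stmn4, also stand in the lists above and are counted under both. Both other Gadd45 genes rose with Gadd45a, Gadd45g by 1.96 (edgeR adjusted p = 0.00134) and Gadd45b by 1.098 (0.0253). Gadd45b held 158, 227, 231 and 237 counts in Sham and 989, 681, 256 and 209 in Vehicle mice, so that its rise lay in Vehicle mice 1 and 2. Without them it was 0.10 (edgeR adjusted p = 0.697), and that of Gadd45g was 0.99 (0.00023). Both other Flrt genes fell with Flrt3, Flrt1 by 0.64 (0.0126) and Flrt2 by 0.55 (0.0162), with differences of -0.33 and -0.27 without Vehicle mice 1 and 2, both still called. The Klf family moved both ways, since the endothelial factor Klf2 rose by 1.16 (0.027), Klf3 by 0.86 (0.00804) and Klf15 by 0.43 (0.0493), and Klf12 and Klf16 fell by 0.44 (0.0025) and 0.79 (0.00404). Klf2 held 342 to 431 counts in Sham and 998, 2142, 341 and 486 in Vehicle mice, and Klf15 547 to 703 in Sham and 1194, 1372, 636 and 694 in Vehicle mice. Both were highest in the mice with the high endothelial sums, whose part was not tested. Klf2 and Klf15 were not called without Vehicle mice 1 and 2 (0.12 and 0.053, edgeR adjusted p = 0.597 and 0.759), while Klf3 (0.32), Klf12 (-0.34) and Klf16 (-0.55) were. Klf7, which also promotes axon growth, differed by -0.0030 (0.977). Ecel1's relative Ece1 rose by 1.40 (0.0087), or by 0.39 without Vehicle mice 1 and 2 (edgeR adjusted p = 0.0141), and Mme, which encodes neprilysin, fell by 1.90 (0.000335) and differed by -1.52 without them. Of the 27 relatives tested without those mice, 4 rose and 7 fell, where the genes called over the whole table were 2836 higher and 2534 lower, against 3982 and 3032 with all mice. Sprr1b, Sprr2a1, Sprr3 and Galp held 0 counts in every mouse.

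The 39.9% of all genes called between Vehicle and Sham mice is the background for each of these lists. Between LJP and Vehicle mice edgeR called 0 genes in each of the 5 lists, with medians of -0.75, 0.17, 0.07, 0.03 and -0.05 in the order above. DESeq2, which called 13.2% of all genes there, called 8 of the 12 transcription factors, all lower. It called 2 of 17 growth cone genes, both lower, 1 secreted or surface gene higher and 6 lower of 18, 1 brake higher and 2 lower of 15, and 1 relative higher and 6 lower. With Vehicle mice 1 and 2 left out, edgeR again called 0 genes in each list, beside 0.0443% of all genes, and the medians became -0.20, -0.031, -0.049, -0.031 and 0.026, so that all but the first turned in sign. Among the transcription factors, the LJP to Vehicle differences with the smallest p-values over all mice went from -1.19 to -0.55 for Rest, from -0.70 to -0.30 for Jun and from -1.83 to -0.51 for Cebpd. Those of the others with a lower mean and an unadjusted p below 0.05 went from -1.36 to -0.33 for Myc, from -1.01 to -0.21 for Stat3, from -0.68 to -0.19 for Sox4, from -1.31 to -0.50 for Atf3 and from -0.79 to -0.13 for Smad1. Higher at an unadjusted p below 0.05 were Egr1, which went from 0.57 to 0.19, and Creb1, from 0.23 to 0.12. Between LJP and Sham mice edgeR called 2, 0, 5, 0 and 1, where 4.75% of all genes were called. The last was Mme (-0.95, edgeR adjusted p = 0.0473), which was not called when libraries were scaled by size alone (-0.90, 0.0538) and was called by DESeq2 (0.00397).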

How the data were processed

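RNA of 12 mouse hemispheres (4 Sham, 4 Vehicle, 4 LJP) was sequenced as poly(A)-selected, paired-end libraries. The authors deposited raw, whole-number counts per gene and mouse, with a gene length used here only for CPM per kilobase. The submitters' processing notes name featureCounts and DESeq2 as tools and GRCm39 and mm10 as builds, and the gene positions in the table match GRCm38. The aligner, the strand setting and the handling of shared reads are not given in the sources used here. All samples carry the same batch label.

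The analysis used edgeR 4.0.16 under R 4.3.3. Genes were filtered with filterByExpr, scaled by TMM and fitted in one quasi-likelihood model of all 12 mice with a coefficient per group. Benjamini-Hochberg adjustment ran over 17558 genes, with calls at an adjusted p below 0.05. Standard errors were derived from the F statistic, and 95% intervals from the t distribution. Exact permutation tests enumerated the splits of 4 against 4 mice on log2 CPM (prior count 2), or on log2 of CPM plus 0.5 for Sprr1a. The ratio of summed Sprr1a counts has an exact binomial interval. Totals per mouse lay between 17960353 and 22216315, and intervals on counts cover counting error only. Plots were drawn with matplotlib 3.10.9, and promoter letters were searched with pandas 2.3.3 in Python 3.11.15.

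The 10 genes, the 5 related lists and the cell type marker lists were written from general knowledge, with earlier results of these data known. The rule named all 10 genes, the 3 genes of each list with the smallest p-values between Vehicle and Sham mice, and relatives of the 10 genes, and other list genes were named after their values were seen. Alternatives were DESeq2 1.42.0, RLE and library size scaling, no filter, fits of 2 groups, a replicate block, the thresholds of the study's methods and leaving out each mouse. The scripts were tested on simulated data. Pairs of mice within a group were no duplicates, since the lowest chi-square per degree of freedom between them was 2.56. Other assays of the study were not analysed here.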

Additional observations from a re-analysis of the deposited data

Results flagged for a closer look

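In Sham mice, Sprr1a held 1 count in mouse 2 and 0 in the others, so that this mouse lay apart from its group by Dixon's criterion. The value rests on 1 read and lies under the floor of 3 counts. Of 30 groups of 4 mice checked over the 10 genes, 1 passed the criterion, where chance alone gives about 1 in 20 groups, or 1.5 of 30.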

How the results depend on the processing

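Between Vehicle and Sham mice, Gap43, Klf6 and Flrt3 kept their direction and their call under every alternative, except that Gap43 missed the fold threshold of the study's methods. Gadd45a lost its call only without Vehicle mice 1 and 2 (0.52). The count of 4 genes was 5 with DESeq2 or no filter (with Sprr1a added) and 4 to 6 when 1 mouse was left out. In those fits Klf4 was called in 2. Sprr1a was called in the 9 of 12 that kept its highest mice, Vehicle mice 1 and 2 and LJP mouse 3, and was not tested in the others. The gene count was 3 at the study's thresholds (log2 fold change over 0.58, unadjusted p below 0.01) and 3 without Vehicle mice 1 and 2, an alternative chosen after seeing the data. Over all genes, 7014 became 7643 with DESeq2, 6419 with no filter, 3807 at the study's thresholds, 5370 without Vehicle mice 1 and 2 and 5285 to 8200 when 1 mouse was left out. Klf4 passed the test without Vehicle mouse 3 or mouse 4 (0.92 and 0.94), fell to 0.18 without mouse 2 and turned to -0.40 without mice 1 and 2. Ecel1 turned to 0.074 without Sham mouse 2, to 0.18 without Vehicle mouse 2 and to 0.063 without Vehicle mice 1 and 2, within -0.28 to 0.18 when 1 mouse was left out. The cause was not tested.

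Between LJP and Vehicle mice, the count of 0 genes became 4 with DESeq2, 1 with no filter (Klf4), 3 at the study's thresholds and 0 to 5 when 1 mouse was left out. Over all genes, 4 became 2307 with DESeq2, 593 with no filter, 2 in a fit of the 2 groups, 1223 at the study's thresholds, 8 without Vehicle mice 1 and 2, and 3 to 3857 when 1 mouse was left out. Sox11 turned to -0.025 without Vehicle mouse 2 (range -0.025 to 0.22), and Ecel1 to 0.082 without Vehicle mouse 1 (range -0.38 to 0.082). Without Vehicle mouse 2 the differences of Klf6, Klf4, Gadd45a and Flrt3 were -0.49, -0.95, -0.54 and 0.27.

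Between LJP and Sham mice, the count of 0 genes became 4 in a fit of the 2 groups and without Vehicle mice 1 and 2, and 0 to 2 when 1 mouse was left out (2 without Vehicle mouse 2, Gap43 and Flrt3). Over all genes, 834 became 1454 with DESeq2, 4043 in a fit of the 2 groups, 4389 without Vehicle mice 1 and 2 (and the 2, 0, 5, 0 and 1 genes of the 5 lists became 4, 6, 9, 6 and 10), and 393 to 2357 when 1 mouse was left out. Sox11 turned to 0.034 with library size scaling and to 0.020 without Sham mouse 2 (range -0.079 to 0.020).

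With the replicate number as a block, 4, 0 and 0 of the genes were called in the comparisons above, as without it, and 6110, 2 and 464 of all genes. Deviations of same-numbered mice from their group means correlated between -0.322 and 0.114. Such values cannot tell whether mice of the same number were handled together, and the main fit used no pairing. Sprr1a and Gal are limited by their low counts, at most 31 and 117 in any mouse, and the Gal counts also spread widely among Vehicle mice (14 to 117).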
